A study of Mus musculus with 6 samples.

Results

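Chaperones are proteins that help other proteins to fold, to refold after stress or to be handed over for degradation. HSP70 proteins bind unfolded stretches and are driven by J-domain (DNAJ) partners, HSP110 proteins exchange their nucleotide, HSP90 completes the folding of kinases and steroid receptors, and small heat shock proteins hold unfolded clients. The transcription factor HSF1 raises many of these genes during heat or proteotoxic stress by binding heat shock elements, which are repeats of the unit GAA in alternating orientation. In neurons, several of them are also abundant without any stress, among them Hspa8 and the HSP90 genes.

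The genes described here are 40 cytosolic and mitochondrial chaperones, co-chaperones and heat shock factors. They form a list of symbols that was chosen with earlier results of these data known. Every probe set that the array's gene table gives to 1 of these symbols alone was used. Of the 40 genes, 37 had such a probe set, as did 18193 genes in all, and they had 88 of the 45037 probe sets of the array. Hsp90ab1 and Hsf1 were not analysed here because the table gives them no entry, and Ptges3 because its probe sets are shared with a pseudogene. Probe sets entered the test if their log2 signal exceeded the array's 40th percentile (5.73 to 6.05) in 3 or more of the 6 arrays. This kept 80 of the 88 probe sets and 36 genes. Of these 80, 76 lay above that level on all 6 arrays. The gene that dropped out is Hsf2, the second heat shock factor.

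Expression was measured in hippocampus of 3 wild-type (WT) and 3 Phf8 knockout (KO) samples, 1 Affymetrix array each, from mice aged 10 weeks whose strain the labels give as C57BL/6. Phf8 encodes an X-linked histone demethylase, and the comparison asked which transcripts differ in hippocampus when it is lost. Per the study's methods, KO mice were Phf8-/Y males that lack the exons for the JmjC demethylase domain in the whole body after recombination by EIIa-Cre, and WT mice were littermates. The line was made on a 129/S6/SvEv background and then backcrossed to C57BL/6 J. The methods speak of hippocampus from 3 KO mice or littermates as a sample, which does not settle whether an array holds 1 mouse or several, so p-values measure only the spread between these arrays. The bright Phf8 probe set had log2 signals of 9.90, 9.66 and 9.73 in WT and 8.23, 8.55 and 7.99 in KO, without overlap (difference -1.51, standard error 0.18, adjusted p = 0.124 from limma over 27408 probe sets).

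The array of KO replicate 3 stood apart. It correlated across probe sets at 0.899 to 0.925 with each remaining array, whereas those 5 correlated at 0.968 to 0.985. For the 9 measured thalamus markers its median exceeded the WT mean by 2.73 on the log2 scale (0.38 and 0.24 in KO replicates 1 and 2, summed signal 4358 to 4917 in WT and 5930 to 34616 in KO), and markers of CA pyramidal and of dentate gyrus granule cells had medians of -0.92 and -0.68, against -0.16 to -0.02 in the other KO arrays. Markers of hippocampal CA and granule cells were above the filter for 6 of 7 and 8 of 8 genes. Red blood cell markers had medians of -3.38, -3.95 and -3.55 on the KO arrays (4 of 6 measured, summed signal 1825 to 2076 in WT and 120 to 234 in KO). Medians of the markers of meninges and fibroblasts were 1.19, 0.72 and 0.35 and those of oligodendrocytes 0.29, 0.38 and 0.29, while those of neurons, microglia and astrocytes lay between -0.08 and 0.21. Endothelial and mural markers lay between -0.13 and 0.20, choroid plexus markers between -2.07 and 1.33, against -1.11 to 1.03 on the WT arrays, and ependymal markers between 0.41 and 1.22. For chaperone genes, values without KO replicate 3 are given where leaving it out turned a printed difference or moved it by over 1.5 times. What part these tissue differences have in the chaperone signals was not tested, and in tissue samples fewer cells of a type and less RNA per cell cannot be told apart.

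Most chaperone genes had a lower mean signal in KO than in WT hippocampus, by small amounts, and none of them passed the test over all probe sets. With each gene represented by its brightest probe set, 28 of 36 were lower on average, against 48.1% of all 12903 genes. The median difference on the log2 scale was -0.14, against 0.01 over all genes. Because the list was chosen with earlier results of these data known, these and the following shares describe it and do not test it. On all 3 KO arrays 11 of the 36 lay below every WT array, against 7.13% of all genes, and 2 lay above every WT array, against 9.56%. Of the 80 probe sets, 62 were lower on average (51.9% of all probe sets), 26 lay below the WT arrays without overlap (7.83% of all probe sets) and 3 above them (7.37%). A mean difference of at least 1.5-fold, the fold used in the study, was reached by 8 probe sets that were lower (3.82%) and 1 that was higher (3.84%). In limma, 0 of 80 passed an adjusted p of 0.05 in either direction (0.0219% of all probe sets lower and 0% higher), and 20 lower and 2 higher probe sets had an unadjusted p under 0.05 (3.06% and 3.12%). An exact permutation test of 3 against 3 arrays cannot go below p = 0.1.

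The count of genes without overlap depended on how arrays were brought to a common level. With quantile normalization, 10 of the 36 genes lay below every WT array (7.03% of all genes), near the 11 as deposited. With each array centred on its median, 6 of the 36 genes lay below every WT array (4.28% of all genes). They were Hspa1a, Hspa1b, Hsph1, Dnaja4, Dnajb5 and Chordc1, all among the 11, while Hsp90aa1, Dnaja1, Dnaja2, Cacybp and Hspd1 overlapped. By probe set, 15 lay below the WT arrays after centring (6.18%). Leaving out KO replicate 3, 21 of 36 genes lay below every WT array (12.8% of all genes), and so did 44 of 80 probe sets (15.1%), with 5 above (15%). In that fit 6 lower and 1 higher probe set passed in limma (0.193% and 0.0401% of all probe sets). With each array weighted by its agreement with its group, 9 lower and 1 higher passed (0.649% and 0.471%).

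**Figure D1:**
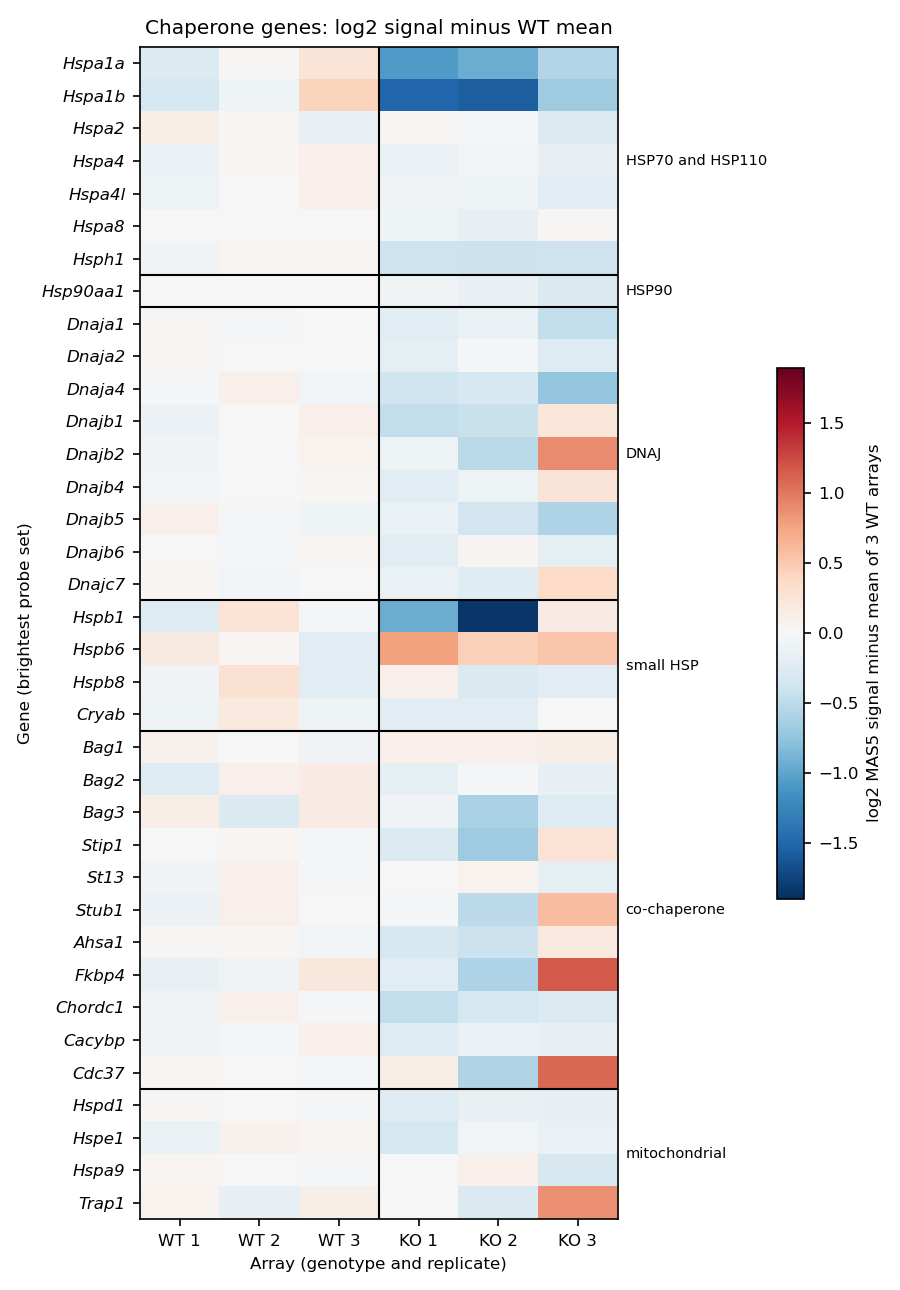
Log2 signal of the brightest probe set of 36 chaperone genes on each array (columns) minus the mean of the 3 WT arrays, grouped by family (rows). Blue is lower and red higher than the WT mean; Hspa1a, Hspa1b and Hsph1 are blue on all 3 KO arrays, and several DNAJ and co-chaperone genes are blue in KO replicate 2 and red in KO replicate 3.

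The stress-inducible HSP70 genes Hspa1a and Hspa1b were lower on every KO array, and Hspa1b had the largest mean difference among the brightest probe sets of the 36 genes. Hspa1a had log2 signals of 10.07, 10.35 and 10.56 in WT and 9.25, 9.37 and 9.77 in KO, which is 1.82-fold lower (difference -0.86, standard error 0.19, adjusted p = 0.671 from limma). The brightest probe set of Hspa1b had 11.70, 11.95 and 12.46 in WT and 10.54, 10.48 and 11.36 in KO, which is 2.37-fold lower (difference -1.25, standard error 0.28, adjusted p = 0.676 from limma). The groups did not overlap for either gene, and on each KO array both were below every WT array, with KO replicate 3 the nearest to them. The other Hspa1b probe sets differed by -1.01 and -1.0, again without overlap. These neighbouring genes are near-identical copies, so that a probe set named for one may also bind transcripts of the other and their signals are not separate evidence. In the fit that left out KO replicate 3, Hspa1a (-1.01, adjusted p = 0.0444) and the Hspa1b probe sets (-1.53, -1.29 and -1.30, adjusted p = 0.0202 to 0.0321) passed in limma. Over the alternatives run, the adjusted p of the brightest Hspa1b probe set ran from 0.00953 to 0.999 and that of Hspa1a from 0.0133 to 0.999.

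The promoters of the inducible pair are shown as a description of their sequence only. Their RefSeq windows, from 250 bases before to 50 bases after the gene start in GRCm38.p6, have the same base at 296 of 300 positions. A stretch of the Hspa1b window (chr17:34959309-34959428, minus strand), which is identical in Hspa1a, holds the palindrome GAANNTTC, the core of a heat shock element, in capitals.
Hspa1b: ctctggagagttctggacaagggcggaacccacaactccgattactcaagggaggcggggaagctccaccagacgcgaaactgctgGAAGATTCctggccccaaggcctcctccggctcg

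Hsph1, which encodes the HSP110 protein that recharges HSP70, was lower by nearly the same amount on every KO array. Its brightest probe set had log2 signals of 13.05, 13.14 and 13.14 in WT and 12.71, 12.70 and 12.71 in KO (difference -0.40, standard error 0.07, adjusted p = 0.347 from limma). Its other probe set had 12.84, 13.03 and 12.97 in WT and 12.51, 12.54 and 12.17 in KO, a difference of -0.54. The groups did not overlap on either probe set, and the spread among the KO arrays of the first (SD 0.01) was below that of the WT arrays (SD 0.05). The first passed in limma without KO replicate 3 (-0.40, adjusted p = 0.0439, against 0.00983 to 0.999 over the alternatives).

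Of the HSP110 relatives, Hspa4 and Hspa4l differed by -0.11 each on their brightest probe sets, with overlap (-0.08 and -0.07 without KO replicate 3). Further probe sets of Hspa4 differed by 0.12 and 0.06, the first with 9.76 in KO replicate 2 and 11.43 in KO replicate 3 (-0.33 without the latter). One Hspa4l probe set lay below the WT arrays on all KO arrays (11.25, 11.35 and 11.52 in WT, 11.11, 11.08 and 10.78 in KO), and the 3 others differed by -0.11 to 0.14 (-0.33 to -0.31 without KO replicate 3). Hspa2, an HSP70 gene best known from the testis, had overlapping groups and differed by -0.09 (0.00 without KO replicate 3).

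Hspa8, the constitutive HSP70 of the cytosol, gave opposite directions on different probe sets. Its brightest had log2 signals of 14.52, 14.50 and 14.52 in WT and 14.43, 14.35 and 14.53 in KO (difference -0.07, or -0.12 without KO replicate 3 and 0.02 after quantile normalization), near the top of the arrays' range of 14.82 to 14.91. The next differed by -0.12, and the third had 13.53, 13.43 and 13.62 in WT and 13.30, 13.21 and 13.23 in KO without overlap (difference -0.28, adjusted p = 0.773 from limma). The dimmest, in contrast, had 7.86, 8.08 and 7.93 in WT and 9.23, 8.85 and 9.02 in KO, which is 2.12-fold higher on KO arrays that all lie above the WT arrays (difference 1.08, standard error 0.16, adjusted p = 0.253 from limma, the lowest adjusted p among the 80 probe sets). It passed without KO replicate 3 (1.09, adjusted p = 0.0456, against 0.002 to 0.999 over the alternatives). Which part of the Hspa8 transcripts this probe set covers was not analysed here. In all, 7 of 7 HSP70 and HSP110 genes were lower on average on their brightest probe set (-1.25 to -0.07, median -0.11, or -0.17 without WT replicate 1), and 3 of them did not overlap, where 48.1% and 7.13% of all genes did so. Hspa8 is among the 7 only through the small difference of its brightest probe set.

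**Figure D2:**
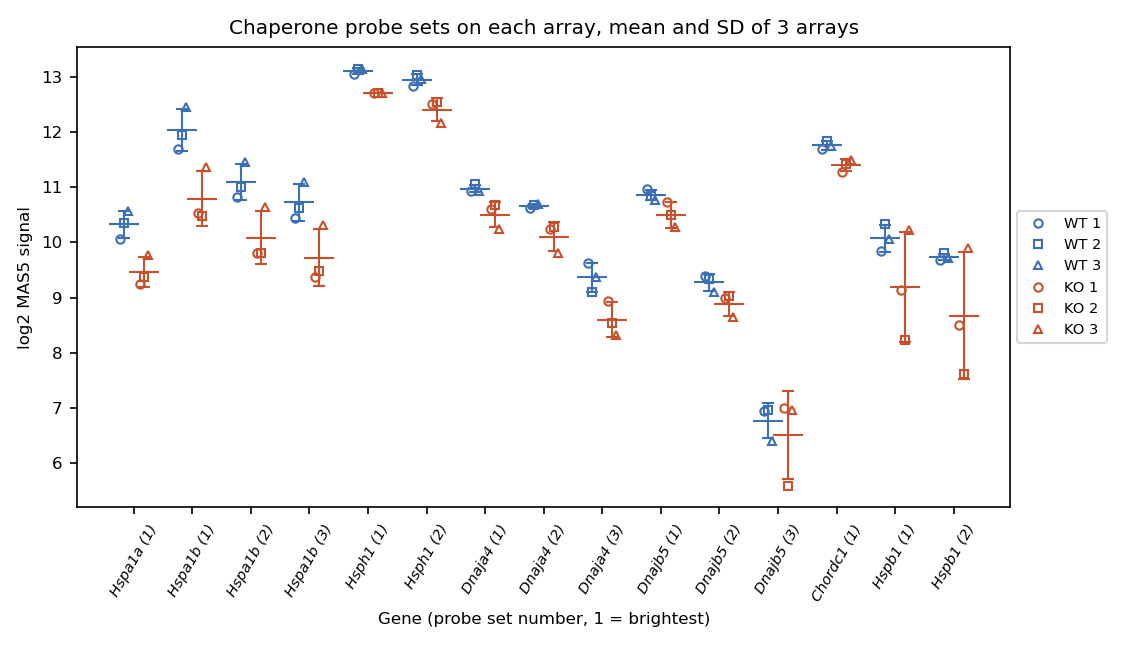
Log2 MAS5 signal (y axis) of the probe sets of 7 chaperone genes (x axis, number 1 the brightest of a gene) by array; bars give mean and SD per genotype (n = 3). KO arrays lie below all WT arrays for each probe set of Hspa1a, Hspa1b, Hsph1, Dnaja4 and Chordc1, while KO replicate 3 of Hspb1 lies within or above its WT arrays.

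Of the HSP90 genes, Hsp90aa1, the inducible cytosolic form, was lower on average on its 3 probe sets above the filter. The brightest had log2 signals of 14.26, 14.24 and 14.25 in WT and 14.18, 14.11 and 13.98 in KO (difference -0.16, standard error 0.06, adjusted p = 0.782 from limma). The next had 13.75, 13.75 and 13.79 in WT and 13.66, 13.61 and 13.32 in KO (difference -0.23). The values without KO replicate 3 were -0.10 and -0.13, and those after quantile normalization were -0.07 and -0.19. Neither overlapped as deposited, while the first overlapped after median centring, and the third (-0.14, or -0.28 without KO replicate 3) overlapped with 12.68 in KO replicate 2 and 13.30 in KO replicate 3. Its 2 dimmest probe sets lay below the filter.

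J-domain genes, whose proteins deliver clients to HSP70 and trigger its ATPase, were lower on average for 7 of 9 genes (median -0.16, or -0.10 without KO replicate 1, range -0.47 to 0.10). By probe set, 21 of 23 were lower on average, against 51.9% of all probe sets, and 10 lay below the WT arrays without overlap, against 7.83%. Dnaja4 had the largest difference of the 9. Its brightest probe set had log2 signals of 10.94, 11.06 and 10.93 in WT and 10.60, 10.67 and 10.24 in KO (difference -0.47, standard error 0.14, adjusted p = 0.773 from limma), and its others differed by -0.56 and -0.77. None of its probe sets overlapped, and KO replicate 3 was the lowest array on each. Without KO replicate 3 the difference of the brightest was -0.34.

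Dnaja1, a general cytosolic partner of HSP70, had log2 signals of 13.44, 13.39 and 13.43 in WT and 13.22, 13.29 and 12.95 in KO (difference -0.27), and its others differed by -0.07 and -0.23. Leaving out KO replicate 3, the first and the last of these were -0.17 and -0.14. Dnaja2 had 13.18, 13.16 and 13.15 in WT and 12.98, 13.13 and 12.92 in KO (difference -0.16), and Dnajb5 had 10.96, 10.84 and 10.77 in WT and 10.73, 10.49 and 10.27 in KO (difference -0.36). On the brightest probe sets of these 3 genes the KO arrays lay below the WT arrays, for Dnaja2 by as little as 0.02 in KO replicate 2. The Dnaja1 probe set at -0.07 and every other Dnaja2 probe set above the filter overlapped. Of the dimmer Dnajb5 probe sets, 1 differed by -0.39 without overlap and 1 overlapped, with 5.58 in KO replicate 2.

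Dnajb1, the main heat-inducible J-domain gene, was low in KO replicates 1 and 2 and not in KO replicate 3. It had log2 signals of 11.35, 11.47 and 11.55 in WT and 10.99, 11.03 and 11.69 in KO (difference -0.22, standard error 0.19, adjusted p = 0.819 from limma), and without KO replicate 3 the difference was -0.45. Its dimmer probe set was likewise below WT in KO replicates 1 and 2 and above it in KO replicate 3 (9.45, 8.64 and 10.08, against 9.68 to 9.93 in WT). Dnajb2, known from neurons, had 9.88, 9.48 and 10.88 in KO against 9.92 to 10.05 in WT, so that its mean difference of 0.10 became -0.30 without KO replicate 3. Dnajb4 (-0.02), Dnajb6 (-0.11) and Dnajc7 (0.00), which also binds HSP90, overlapped on their brightest probe sets (-0.15, -0.07 and -0.18 without KO replicate 3), and 1 dimmer probe set each of Dnajb4 (-0.41) and Dnajb6 (-0.22) did not.

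Small heat shock genes split. Hspb1, the inducible HSP27, had log2 signals of 9.84, 10.33 and 10.06 in WT and 9.13, 8.23 and 10.22 in KO (difference -0.88, standard error 0.45, adjusted p = 0.782 from limma). Its other probe set had 9.69, 9.80 and 9.71 in WT and 8.51, 7.62 and 9.89 in KO (difference -1.06). KO replicates 1 and 2 lay below every WT array on both, and KO replicate 3 did not, so the groups overlapped. Without KO replicate 3 the differences were -1.40 and -1.67, and the second passed in limma (adjusted p = 0.0328, against 0.0168 to 0.999 over the alternatives).

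Hspb6, known from muscle, was higher on all KO arrays (7.21, 7.08 and 6.82 in WT, 7.80, 7.49 and 7.56 in KO, difference 0.58, standard error 0.20, adjusted p = 0.773 from limma), at signals not far above the filter. On all KO arrays, 4 of 7 measured oligodendrocyte markers lay above every WT array and 1 below. Of 6 markers of meninges and fibroblasts, 2 lay above and 0 below. So did 3 of 9 thalamus, 2 of 6 ependymal and 1 of 8 endothelial and mural markers, each list with 0 below. In each remaining marker list 0 lay above. Of all genes, 9.56% lay above and 7.13% below. Summed signals of the oligodendrocyte markers were 44334 to 48173 in WT and 43334 to 49737 in KO. Those of meninges and fibroblasts were 2291 to 3084 in WT and 2527 to 5959 in KO. The part of any of these cell types in the Hspb6 value was not tested. Cryab, an abundant glial small heat shock gene, had 12.07, 12.35 and 12.08 in WT and 11.95, 11.95 and 12.15 in KO (difference -0.14, or -0.21 without KO replicate 3), and Hspb8, a partner of Bag3, differed by -0.13 (-0.08), both with overlap.

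Co-chaperones of HSP70 and HSP90 were lower on average for 7 of 11 genes (median -0.13, range -0.36 to 0.22). This median rested on single arrays, since it was -0.27 without KO replicate 3, -0.06 without KO replicate 2, -0.08 without WT replicate 2 and -0.05 without WT replicate 3. Chordc1, an HSP90 partner, had log2 signals of 11.69, 11.84 and 11.74 in WT and 11.28, 11.42 and 11.49 in KO without overlap (difference -0.36, standard error 0.10, adjusted p = 0.773 from limma). Cacybp, a binding partner of ubiquitin ligase components, had 11.99 to 12.14 in WT and 11.80, 11.92 and 11.90 in KO without overlap (difference -0.17). Bag1, a nucleotide exchange factor of HSP70, was the only co-chaperone above the WT arrays on all KO arrays, by a small amount (11.19, 11.10 and 11.05 in WT, 11.21, 11.21 and 11.22 in KO, difference 0.10). Bag3, which links HSP70 and small heat shock proteins to selective autophagy, had 8.41, 8.01 and 8.44 in WT and 8.22, 7.68 and 8.05 in KO with overlap (difference -0.30), and Bag2 differed by -0.13.

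The remaining co-chaperones varied more between KO arrays than between genotypes. Fkbp4, an immunophilin of steroid receptor complexes, had 8.69, 8.31 and 10.06 in KO against 8.75 to 9.11 in WT. Cdc37, which brings kinases to HSP90, had 10.40, 9.70 and 11.36 in KO against 10.24 to 10.29 in WT. Both were below the WT arrays in KO replicate 2 and above them in KO replicate 3. Stub1, the ubiquitin ligase CHIP, had 11.60, 11.12 and 12.22 in KO against 11.52 to 11.73 in WT. Stip1, the adaptor between HSP70 and HSP90, had 10.47, 10.05 and 11.01 in KO against 10.69 to 10.77 in WT. Ahsa1, the activator of the HSP90 ATPase, had 11.46, 11.35 and 11.95 in KO against 11.71 to 11.79 in WT, and St13, an HSP70-interacting protein, differed by -0.04 on its brightest probe set (0.03 without KO replicate 3) and by -0.34, without overlap, on the next (-0.12). Without KO replicate 3, Stip1 differed by -0.47, Fkbp4 by -0.39, Ahsa1 by -0.36, Stub1 by -0.27 and Cdc37 by -0.22, where the differences with all arrays were -0.22, 0.13, -0.18, 0.02 and 0.22.

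This opposite placing of KO replicates 2 and 3 was seen for 11 of the 36 chaperone genes, which lay below every WT array in KO replicate 2 and above every WT array in KO replicate 3, against 14% of all genes, while 2 of the 36 were placed the other way round, against 17% of all genes. Besides the 5 co-chaperones they were Dnajb1, Dnajb2, Dnajb4, Dnajc7, Trap1 and Hspa8. For Hspa8 the signal in KO replicate 3 was 14.53 against at most 14.52 in WT, near the top of the arrays' range, which does not settle its place. In KO replicates 1 and 2 together, 21 of 36 genes lay below every WT array, against 12.8% of all genes. By array, 23 genes were below every WT array in KO replicate 1, 26 in KO replicate 2 and 17 in KO replicate 3, against 26.2%, 30.3% and 41.7% of all genes. The median of the 36 genes relative to the WT mean was -0.18, -0.22 and -0.15 in KO replicates 1, 2 and 3 and -0.04 to 0.01 on the WT arrays.

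**Figure D3:**
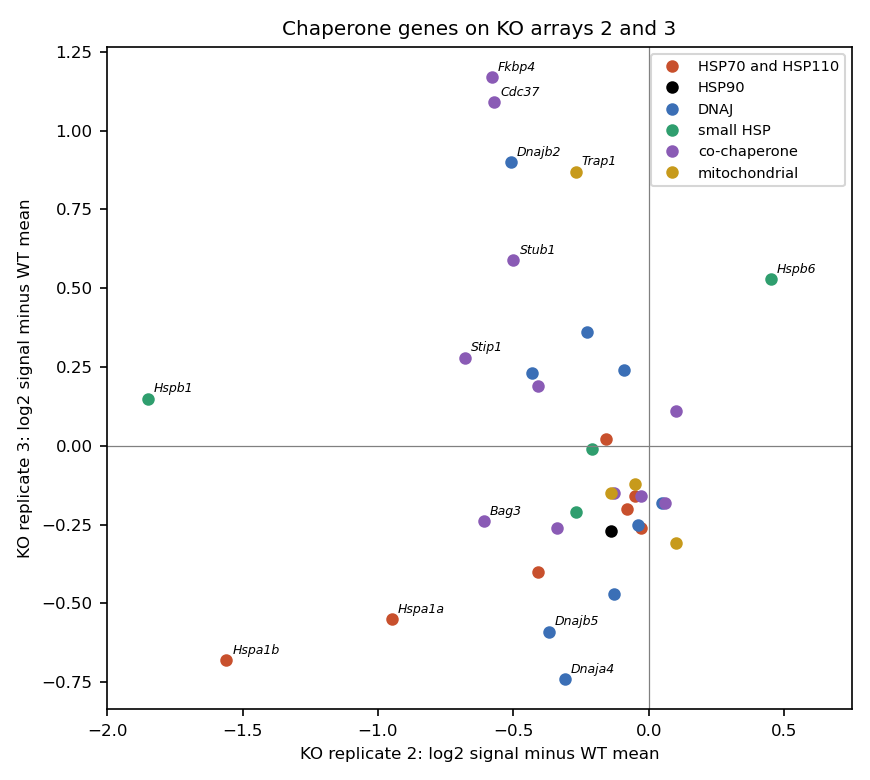
Log2 signal minus the WT mean of 36 chaperone genes (1 point each, brightest probe set, coloured by family) in KO replicate 2 (x axis) and KO replicate 3 (y axis). Fkbp4, Cdc37, Dnajb2, Trap1, Stub1 and Stip1 lie below 0 in the first and above 0 in the second, while Hspa1a, Hspa1b, Dnaja4 and Dnajb5 lie below 0 in both.

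Mitochondrial chaperones differed by small amounts. Hspd1, the chaperonin HSP60, had log2 signals of 12.38, 12.36 and 12.34 in WT and 12.12, 12.22 and 12.22 in KO (difference -0.18, standard error 0.08, adjusted p = 0.782 from limma), without overlap as deposited and with overlap after median centring. Hspe1, its lid HSP10, had 12.05, 12.25 and 12.21 in WT and 11.84, 12.12 and 12.05 in KO (difference -0.17) with overlap, and its other probe set differed by -0.19 without overlap. Both genes were lowest in KO replicate 1.

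Hspa9, the mitochondrial HSP70, differed by -0.07, 0.13 and 0.15 on its brighter probe sets, all with overlap (0.04, 0.22 and 0.30 without KO replicate 3). A dim one had 7.40, 7.24 and 7.65 in WT and 6.88, 6.31 and 4.67 in KO (difference -1.48), where KO replicate 3 lay below the filter, and without it the difference was -0.83. Trap1, the mitochondrial HSP90, had 9.03, 8.75 and 9.89 in KO against 8.86 to 9.13 in WT (difference 0.20, or -0.14 without KO replicate 3). Hsf2 lay below the filter on both probe sets, with log2 signals of 5.08 to 5.47 on all arrays for one and of 4.09 to 5.14 for the other, except KO replicate 3 (7.40).

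**Figure D4:**
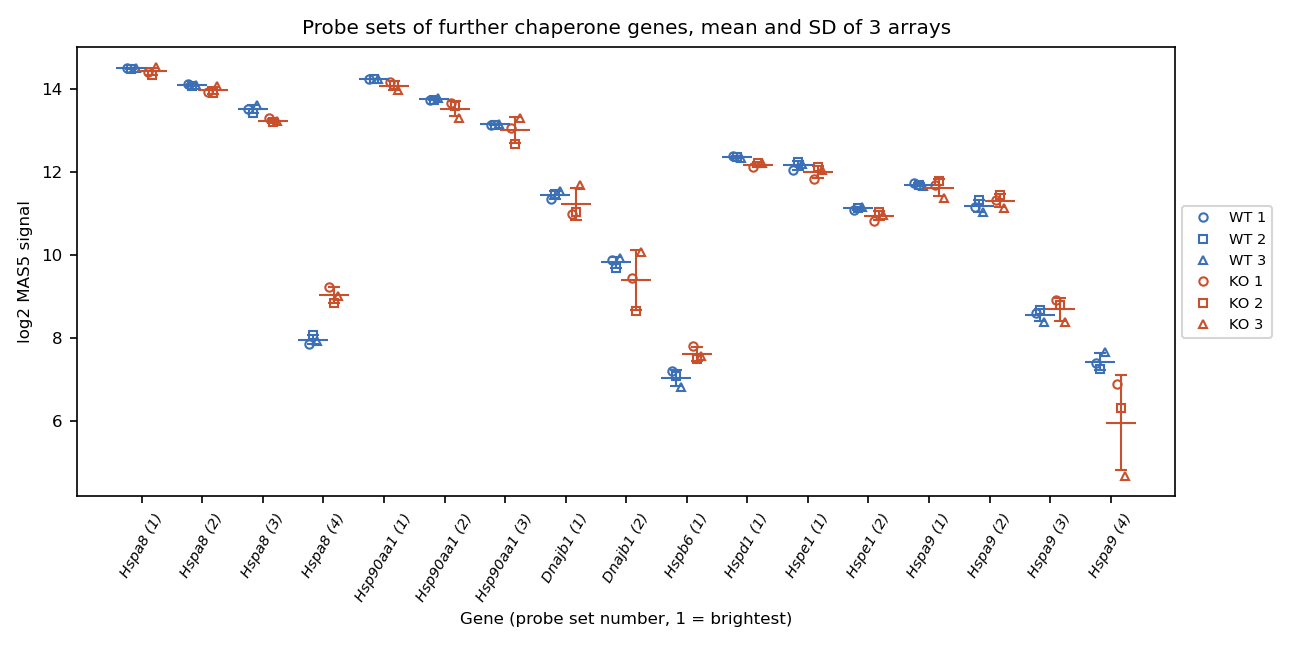
Log2 MAS5 signal (y axis) of the probe sets above the filter of 7 further chaperone genes (x axis, number 1 the brightest of a gene) by array; bars give mean and SD per genotype (n = 3). The dimmest Hspa8 probe set is higher in KO (8.85 to 9.23) than in WT (7.86 to 8.08) while the brighter ones are not, and Hspd1 and Hspe1 differ by less than 0.2 on average.

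Of the 24 genes with more than 1 probe set above the filter, 17 gave 1 direction on all of them, 15 of these lower and Stub1 and Trap1 higher, while without KO replicate 3 the probe sets of these latter genes were lower (-0.27 and -0.13 for Stub1, -0.14 and -0.02 for Trap1). The exceptions were Hspa4, Hspa4l, Hspa8, Hspb8, Fkbp4, Cdc37 and Hspa9. Chaperone genes were bright and varied little among WT arrays. The median SD over the 3 WT arrays was 0.08 for the 36 genes and 0.11 for all genes, and over the KO arrays it was 0.19 and 0.26.

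Heat shock elements were looked for in the promoter windows that RefSeq sequences gave for 33 of the 40 genes. The motif searched, on both strands, has 3 units: GAANNTTC, with N any base, extended by NNGAA at its end or by TTCNN at its start, so that every match contains the shorter GAANNTTC. It was found for 5 of 33 genes, against 0.662% of all 27025 genes with a window. They were Chordc1, Dnajb6, Hspd1, Hspe1 and Hsph1, shown here with the matched units in capitals.
Chordc1 (chr9:18292258-18292290, plus strand, across the gene start): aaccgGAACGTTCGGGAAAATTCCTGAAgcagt
Dnajb6 (chr5:29735847-29735869, plus strand): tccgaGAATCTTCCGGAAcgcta
Hspd1 (chr1:55088054-55088081, minus strand): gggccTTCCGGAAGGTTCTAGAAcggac
Hspe1 (chr1:55088054-55088081, plus strand): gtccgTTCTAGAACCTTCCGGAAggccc
Hsph1 (chr5:149636283-149636305, minus strand, after the gene start): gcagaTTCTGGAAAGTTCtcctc

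Hspd1 and Hspe1 lie head to head, and the same 28 bases are read from either strand for both. Chordc1 holds 3 overlapping matches that begin at positions -4 to 6 from the gene start. The 5 genes were all lower on average in KO (differences of -0.40 to -0.11, median -0.18), and 3 of them lay below every WT array. Of all 60 measured genes with this motif, 53.3% were lower on average and 13.3% lay below every WT array. Among the chaperones, the 26 measured genes with a window and no match had a median of -0.13. Of these 26, 18 were lower on average and 7 lay below every WT array, Hspa1a and Hspa1b among them. Of all measured genes with a window and no match, 47.8% were lower on average and 6.87% lay below every WT array. The shorter GAANNTTC was found for 15 of 33 genes, against 9.04% of all genes, among them Hspa1a, Hspa1b, Hspb1, Dnaja4 and Hspb6. Of these 15, 12 were lower on average (median -0.27) and 7 lay below every WT array, while Hspb6 lay above all of them. Of the 16 measured genes that lack the shorter motif, 11 were lower (median -0.11) and 3 lay below every WT array, while Bag1 lay above. Over all genes that hold the shorter motif, 49.7% were lower on average and 9% lay below every WT array. Over all measured genes with a window that lack the shorter motif, these shares were 47.7% and 6.75%. A match is a description of the letters in the window, and binding was not measured.
In Hspb1 (chr5:135887797-135887834, plus strand) and Dnaja4 (chr9:54699464-54699519, plus strand) the short motif, in capitals, occurs 2 times.
Hspb1: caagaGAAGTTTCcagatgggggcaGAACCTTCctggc
Dnaja4: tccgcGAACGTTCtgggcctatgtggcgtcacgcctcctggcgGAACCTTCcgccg

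Genes of the folding machinery outside the list were described in the same way, but their differences without KO replicate 3 are not given. Of 59 further genes, 57 were measured, 22 lower and 35 higher on average (median 0.05), and 0 passed in limma (1 lower at an unadjusted p under 0.05). On all 3 KO arrays, 4 of the 57 lay below every WT array and 1 above. Of all genes, 7.13% lay below and 9.56% above, so the lower count was near the share over all genes. Of 14 subunits of the cytosolic chaperonin TRiC and of prefoldin, 6 were lower and 8 higher (median 0.01). Cct5 (12.35, 12.24 and 12.35 in WT, 12.14, 12.13 and 12.18 in KO, difference -0.16) and Tcp1 (-0.18) lay below the WT arrays without overlap. Of 17 further J-domain and HSP70 genes, 7 were lower and 10 higher (median 0.03), with Dnajc15 at 0.18 and Dnajb12 at -0.36. Dnajb12 had 8.50, 8.27 and 8.31 in WT and 8.34, 8.32 and 7.34 in KO, with KO replicate 3 the lowest array. Of 16 further co-chaperones and regulators, 5 were lower and 11 higher (median 0.14). Bag4 (11.06, 11.11 and 10.87 in WT, 10.67, 10.85 and 10.49 in KO, difference -0.34, adjusted p = 0.782 from limma) lay below the WT arrays, and Hsbp1, a negative regulator of HSF1, lay above them (12.99, 13.09 and 13.11 in WT, 13.23, 13.24 and 13.16 in KO, difference 0.15). Of 10 further mitochondrial folding and protease genes, 4 were lower and 6 higher (median 0.12), with Htra2 at 0.29 and Grpel1, the nucleotide exchange factor of Hspa9, at 0.26. Grpel1 had 10.41, 10.22 and 10.09 in WT and 10.39, 10.35 and 10.76 in KO, with KO replicate 3 the highest array. None of these 4 medians was tested against that of the chaperone genes.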

How the data were processed

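The authors deposited log2 signals per probe set. MAS5 and affy appear in the submitters' notes with no version given, while GeneSpring and the removal of Absent probe sets come from the published methods. On the linear scale the trimmed mean of each array was 497.5 to 498.2. No detection calls entered the fit, and a percentile filter took their place. KO minus WT was fitted over 27408 probe sets with limma 3.58.1 in R 4.3.3 (lmFit, eBayes with trend, Benjamini-Hochberg adjustment). The fit was tested on simulated data. Of 45037 probe sets, 34945 have 1 gene in the platform annotation, 932 several, and 9160 are not in it. The number of arrays limits the precision.

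All 40 members could be named, those without overlap, at 1.5-fold or of 12 set genes with each array's value, and up to 2 genes of each further list with the smallest p. Members, lists and tests were chosen with earlier results of these data known. Alternatives were other scaling, filters, offsets and variance models, array weights, a replicate block, 1 probe set per gene and leaving out each array. The labels give both groups replicate numbers 1 to 3. The default estimate of array weights did not converge, and the gene by gene estimate was used.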

Additional observations from a re-analysis of the deposited data

How the results depend on the processing

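Quantile normalization, median centring, other filters, an offset of 16 signal units and a variance without trend left the count of chaperone probe sets that passed at 0. Array weights gave 9 lower and 1 higher, and a Phf8 difference of -1.52 (adjusted p = 0.000372 from limma). With 1 probe set per gene, 3 of 36 were 1.5-fold lower, 0 higher and 11 below the WT arrays without overlap. Of all 12903 genes, 262 were 1.5-fold lower, 535 higher and 920 below without overlap. With the 20th-percentile filter and with no filter, 3 of 88 were 1.5-fold higher, and the share over all probe sets is not given. The added ones were dim probe sets below the main filter, with overlapping groups. They belong to Hsp90aa1 (1.05, 5.40 and 2.08 in WT) and Cryab (3.23, 3.97 and 4.71 in WT), and this count is not read as a result. Median centring left 15 lower without overlap (6.18% of all probe sets), and the median difference was -0.17, as it was for the mean over probe sets. The shorter promoter motif was found for 15 genes in place of 5.

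Leaving out each array in turn, passing probe sets ranged from 0 to 6 lower and 0 to 1 higher, 1.5-fold higher ones from 1 to 4, those without overlap from 26 to 44 lower and 3 to 6 higher, the median difference from -0.19 to -0.11 and the Phf8 difference from -1.65 to -1.37. With fewer arrays, overlap is rarer for every gene. By brightest probe set, 11, 12 and 21 of the 36 genes lay below every WT array when KO replicate 1, 2 or 3 was left out. The shares of all genes were 11.9%, 16.3% and 12.8% in the same order. Leaving out WT replicate 1, 2 or 3, the counts were 15, 12 and 11, against 9.54%, 9.97% and 10.4% of all genes. With all arrays the count was 11 and the share 7.13%. Deviations of same-numbered WT and KO arrays correlated at -0.02, 0.07 and 0.10, so the numbers were not taken to pair the samples. With the replicate number as a block, 0 chaperone probe sets passed and the Phf8 difference was -1.51 (adjusted p = 0.388 from limma). No call of these genes changed, while 2 of all probe sets passed, against 6 without the block.

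The sign of the difference turned for 30 of the 80 probe sets in 1 or more alternatives, none of which passed as reported. Under array weights these were Hspa4 (-0.05, -0.01), Hspa4l (-0.15), Dnajb2 (-0.10), Dnajb5 (0.02), Dnajc7 (-0.13), Hspb8 (0.05, 0.20), St13 (0.01), Stub1 (-0.05), Fkbp4 (-0.17, 0.53), Cdc37 (0.17) and Trap1 (0.00). Quantile normalization turned Hspa8 (0.02), and median centring Dnajc7 (-0.03) and Stub1 (-0.01). Leaving out single arrays, the range of differences crossed 0 for Hspa4 (-0.33 to 0.51, -0.01 to 0.09), Hspa4l (-0.32 to 0.14, -0.33 to 0.11, -0.31 to 0.43), Hsp90aa1 (-0.28 to 0.03), Dnaja2 (-0.21 to 0.12, -0.47 to 0.29), Dnajb2 (-0.30 to 0.40), Dnajb4 (-0.15 to 0.07), Dnajb5 (-0.50 to 0.21), Dnajb6 (-0.46 to 0.05), Dnajc7 (-0.18 to 0.12), Hspb8 (-0.24 to 0.02, -0.52 to 0.24, -0.08 to 0.22), Cryab (-0.55 to 0.06), Stip1 (-0.47 to 0.01), St13 (-0.09 to 0.03), Stub1 (-0.27 to 0.28, -0.13 to 0.45), Ahsa1 (-0.35 to 0.13), Fkbp4 (-0.39 to 0.48), Cdc37 (-0.22 to 0.61, -0.35 to 0.05), Hspa9 (-0.16 to 0.04) and Trap1 (-0.14 to 0.43, -0.02 to 0.22).

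The cause of these shifts was not tested. The 3 arrays per genotype limit what can be detected.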
